A study of Homo sapiens with 12 samples.

Results

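The comparison is between HEL cells that received the Jak2-9 hairpin, a short hairpin RNA (shRNA) against JAK2, and HEL cells that received either of the control constructs. It takes the 3 arrays titled as Jak2-9 knockdown and the 6 control arrays, 9 of the 12 arrays of the series, chosen by their titles, and covers all 11940 genes that the arrays name. HEL is an established acute myeloid leukaemia line with erythroid and megakaryocytic features, and every group carries its JAK2V617F mutation, homozygous in the submitters' design note. All constructs were lentiviral, in a pLKO vector with puromycin selection. The 3 groups used here are Jak2-9, a hairpin against luciferase (Luc) and a GFP construct that the titles call a control shRNA and the treatment note a vector control, with 3 arrays each. A Jak2-10 group, the other JAK2 hairpin, has the remaining 3 arrays and is given only beside Jak2-9. The labels do not give the hairpin sequences, the time after infection or whether replicates were separate cultures, so the p-values rest on array-to-array spread that may be no more than technical.

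JAK2 is a tyrosine kinase that sits under cytokine receptors such as those for erythropoietin and thrombopoietin and phosphorylates STAT proteins, which enter the nucleus and switch on target genes. The V617F change keeps the kinase active without cytokine, and JAK2-mutant lines such as HEL depend on it. STAT5 targets include the feedback inhibitors of the CISH and SOCS family, the PIM kinases and survival genes such as BCL2L1. A hairpin lowers the messenger RNA of its target by RNA interference, and hairpins of different sequence against 1 gene are used to separate the effect of the target from that of the sequence.

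Values are log2 intensities, 1 probe set per gene, the brightest. For each gene the values of Jak2-9 replicates 1, 2 and 3 are given in that order, then the lowest, median and highest of the 6 control arrays. A difference is the Jak2-9 mean (n = 3) minus the control mean (n = 6) on the log2 scale, followed by ± its standard error (SE) from limma, a linear model across all genes. A gene "rose" or "fell" where the Benjamini-Hochberg adjusted p of limma was under 0.05. Only intensities of the same probe set are compared, since probe sets differ in brightness. In bulk RNA of this kind, fewer cells of a type and less RNA per cell cannot be told apart.

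The array medians lay between 44.9 and 49.1 in linear intensity, and the number of arrays, rather than reads, limits the precision. Jak2-9 replicate 1 stood apart from its group: 253 of its genes differed more than 2-fold from the average of replicates 2 and 3, 28 above and 225 below, against 4 genes for replicate 2, 13 for replicate 3 and 0 or 1 for each control array, measured the same way. Its correlation across genes was 0.987 with replicate 2 and 0.986 with replicate 3, against 0.997 between those 2 and 0.997 to 0.998 within the control groups. The counts, and the genes the results turn on, are therefore given with and without replicate 1. The cells expressed some HEL markers strongly. The brightest of each list had mean control values of 14.74 for HBG2, a fetal globin, 13.96 for TFRC, the transferrin receptor, and 12.52 for PLEK, a platelet protein. The list medians were 10.17 for globins, 8.96 for red cell membrane genes and 6.78 for megakaryocyte and platelet genes. Other members were dim, such as SLC4A1 of the red cell list at 4.84 and VWF of the platelet list at 4.42. Among 21 monocyte and granulocyte markers the median control value was 4.51, among 20 lymphoid markers 4.86 and among 21 fibroblast and epithelial markers 4.64, against 6.28 over all genes. In the same order, the brightest members of these lists were NCF4 at 10.45, CD2 at 8.95 and DCN at 10.16. The summed intensity of these lists was 1908 to 2128 on control and 2094 to 2775 on Jak2-9 arrays for the first, 1251 to 1422 and 1391 to 1633 for the second, and 2530 to 2671 and 2616 to 2922 for the third; their part in the results was not tested.

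JAK2 itself fell in the Jak2-9 cells. Of its 2 probe sets, the brighter read 9.37, 9.89 and 10.09 on the Jak2-9 arrays and 10.40, 10.52 and 10.68 on the controls. All 3 Jak2-9 arrays lay below all 6 controls, with replicate 1 the lowest. The difference was -0.75 ± 0.14 (adjusted p in limma = 0.00768), which leaves 59.3% of the control level (95% interval 48.5 to 72.6%). Without replicate 1 the difference was -0.55, 68.5% of the control level (adjusted p in limma = 0.0132). The dimmer probe set read 7.11, 8.35 and 8.40 against 8.68, 8.78 and 8.90 in the controls. The groups did not overlap there either, but replicate 1 lay more than 1 log2 unit below the other 2, so that the level left was 56.0% with it and 75.0% without it. The exact permutation p, two-sided and over the 84 arrangements of 3 against 6 arrays, was 0.0238 for either probe set, which is the lower bound of that test. In the Jak2-10 cells the brighter probe set differed from the controls by -0.58 (adjusted p in limma = 0.0824). Jak2-10 minus Jak2-9 was 0.18, with a 95% interval of -0.16 to 0.51 (adjusted p = 0.68 in a limma fit of all probe sets). The data thus do not separate the levels left by the 2 hairpins, nor show them to be equal.

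**Figure D1:**
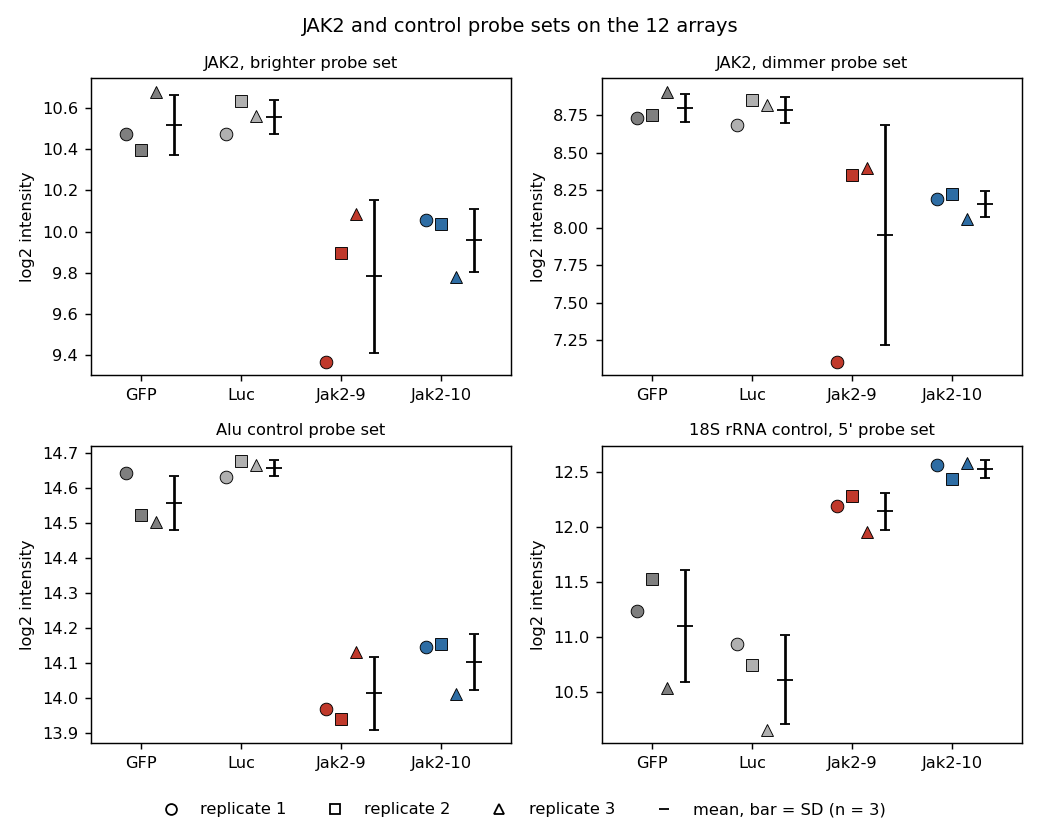
Log2 intensity of the 2 JAK2 probe sets, the Alu control probe set and the 5′ control probe set of 18S ribosomal RNA on all 12 arrays, by group, with the group mean and SD (n = 3). The Jak2-9 arrays lie below every control at both JAK2 probe sets and at Alu and above every control at the 18S probe set, and replicate 1 lies far below the other 2 at the dimmer JAK2 probe set.

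Some of the array's own control probe sets moved with the hairpin. The Alu probe set, which reads transcripts holding Alu repeats, gave 13.97, 13.94 and 14.13 on the Jak2-9 arrays against 14.50, 14.64 and 14.68 on the controls. All 3 Jak2-9 arrays were below the controls, by 0.60 in the mean and by 0.57 without replicate 1 (exact two-sided permutation p = 0.0238), and the Jak2-10 arrays read 14.01 to 14.15. The 3′ minus 5′ difference of GAPDH, a measure of RNA integrity, ranged from -0.11 to -0.0041 on the controls and was 0.0946, -0.05 and -0.02 on the Jak2-9 arrays. For ACTB it was 0.42, 0.13 and 0.15 against 0.19 to 0.38. Replicate 1 was above every control on both measures, and replicates 2 and 3 were not. The part of these measures in the gene results was not tested.

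Across all genes, 191 rose (1.6% of 11940) and 176 fell (1.47%) in the Jak2-9 cells. Without replicate 1, 36 rose (0.302%) and 120 fell (1.01%). The rises were small: 3 of the 191 risen genes reached 2-fold, against 40 of the 176 fallen, and without replicate 1 the counts were 1 and 25. The median difference was 0.50 over the risen genes, -0.74 over the fallen and 0.06 over all genes. In the fit without replicate 1 the same sets had medians of 0.37 and -0.56, against 0.04 over all genes. All 3 Jak2-9 arrays lay above all 6 controls for 1123 genes (9.41%) and below them for 454 (3.8%), and at an unadjusted p under 0.05 in limma there were 2029 higher and 862 lower genes.

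More of the falls than of the rises were also called without replicate 1: 114 of the 176 fallen genes (64.8%) also fell without it, and 31 of the 191 risen genes (16.2%) also rose. Only 5 genes rose and 6 fell in the fit without it alone. Replicate 1 was the highest Jak2-9 array for 177 of the risen genes (92.7%, against 51.4% of all genes) and the lowest for 131 of the fallen (74.4%, against 33.2%). Other single arrays moved the counts as well. Leaving out Jak2-9 replicate 2 gave 575 rises and 305 falls, and leaving out replicate 3 gave 854 and 455. Leaving out 1 control gave 50 rises and 109 falls for GFP replicate 1, 66 and 124 for GFP replicate 2, 73 and 140 for GFP replicate 3, 74 and 125 for Luc replicate 1, 38 and 119 for Luc replicate 2, and 92 and 123 for Luc replicate 3. Leaving out Jak2-10 replicate 1 gave 89 rises and replicate 2 gave 105. Over these 12 leave-outs 102 fallen genes and 26 risen genes were called each time. The split of directions also moved with the scaling: 52.0% of the called genes rose in the values as deposited, 67.8% after centring each array on its median and 38.7% after quantile normalisation, and centring moved the median of all genes to 0.08.

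**Figure D2:**
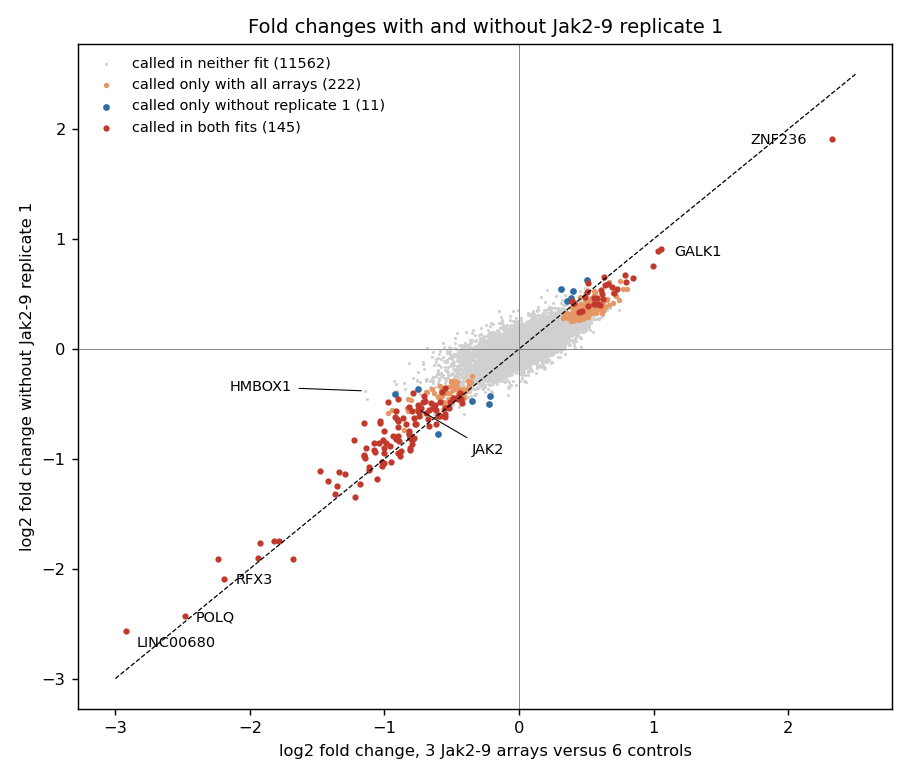
Log2 fold change of each gene against the controls with all 3 Jak2-9 arrays (horizontal axis) and without replicate 1 (vertical axis), with the dashed line at equal values. Red genes were called in both fits (145 genes), orange only with all arrays (222) and blue only without replicate 1 (11), and the large falls lie near the line while most rises lie under it.

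The largest fall was that of LINC00680, a long noncoding RNA. It read 4.76, 5.45 and 6.21 on the Jak2-9 arrays and 7.71, 8.52 and 8.86 on the controls, so that every Jak2-9 array lay at least 1 log2 unit below every control. The difference was -2.92 ± 0.22 (adjusted p in limma = 7.81e-06), 13.2% of the control level, and -2.56 without replicate 1. POLQ, the DNA polymerase theta that joins broken DNA ends by short homologies, read 4.87, 5.05 and 5.02 against 6.61, 7.67 and 8.0004. Its 3 Jak2-9 arrays lay close together and far below the controls, whose own spread was wider. The difference was -2.49 ± 0.15 (adjusted p in limma = 1.08e-06), 17.9% of the control level, and -2.43 without replicate 1. RFX3, a transcription factor of cilium genes, read 4.49, 4.63 and 4.95 against 6.21, 7.04 and 7.35, again without overlap. It fell by 2.19 on the log2 scale (± 0.15, adjusted p in limma = 3.18e-06), but its other probe set read 4.37 to 4.63 on controls and differed by only -0.06. CEP152, a scaffold of centriole duplication, read 4.89, 5.08 and 5.13 against 6.32, 6.90 and 7.36. It fell by 1.82 (± 0.11, adjusted p in limma = 1.08e-06), with -0.87 at its other probe set and no overlap at either. The Jak2-9 values of POLQ, RFX3 and CEP152, and the lowest of LINC00680, lie near the medians of the markers of other cell types in these cells, 4.51 to 4.86. At that level the arrays were not shown to measure above background, so the size of these falls is uncertain.

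Falls of more than 2-fold were spread over genes of several kinds. SCAF4, which binds the tail of RNA polymerase II, read 5.84, 6.13 and 6.55 against 7.50, 8.08 and 8.80 and fell by 1.93, to 26.3% of control. CTTNBP2NL, a partner of the STRIPAK phosphatase complex, read 5.31, 5.12 and 5.72 against 6.63, 7.41 and 7.86 and fell by 1.94, to 26.0%. FAN1, a nuclease of DNA crosslink repair, read 5.38, 5.84 and 6.25 against 6.76, 7.26 and 7.54 and fell by 1.42, to 37.4%. In each of these the groups did not overlap. SNHG3, whose introns hold small nucleolar RNAs, read 5.68, 6.13 and 5.52 against 6.84, 7.17 and 7.41 and fell by 1.37. GABBR1, which encodes part of the GABA B receptor, read 6.15, 5.43 and 5.47 against 6.74, 7.43 and 7.76. Here replicate 1 was the highest Jak2-9 array and the fall was larger without it, -1.91 against -1.68. The zinc finger genes ZBTB44 and ZNF160 fell by 1.36 and 1.22, and by 1.25 and 1.35 without replicate 1. GOLGA8A (7.35, 7.99 and 8.66 against 9.65, 10.29 and 10.65, -2.24), NOTCH2NLA (8.65, 9.57 and 9.93 against 10.55, 10.95 and 11.10, -1.48) and ANKRD36B (5.40, 5.65 and 5.41 against 6.58, 7.41 and 7.57, -1.79) also fell, but they belong to families of near-identical copies that a probe set may not tell apart. None of the genes in this and the preceding paragraph lost its call in any of the 12 leave-outs.

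For the same genes the Jak2-10 cells differed from the same controls by -1.98 for LINC00680, -2.40 for POLQ, -1.63 for GOLGA8A, -1.54 for RFX3, -1.15 for CEP152, -1.26 for SCAF4, -1.53 for CTTNBP2NL, -1.61 for GABBR1 and -1.39 for SNHG3. Over the 176 genes that fell with Jak2-9 the median Jak2-10 difference was -0.49, over the 191 that rose it was 0.17, and over all genes 0.02. The 2 comparisons share their 6 control arrays, so these values are not independent of those of Jak2-9. Tested directly, Jak2-10 minus Jak2-9 passed the threshold for 0 genes in limma (0.0% of 11940), with a lowest adjusted p of 0.499 and 1174 genes at an unadjusted p under 0.05.

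**Figure D3:**
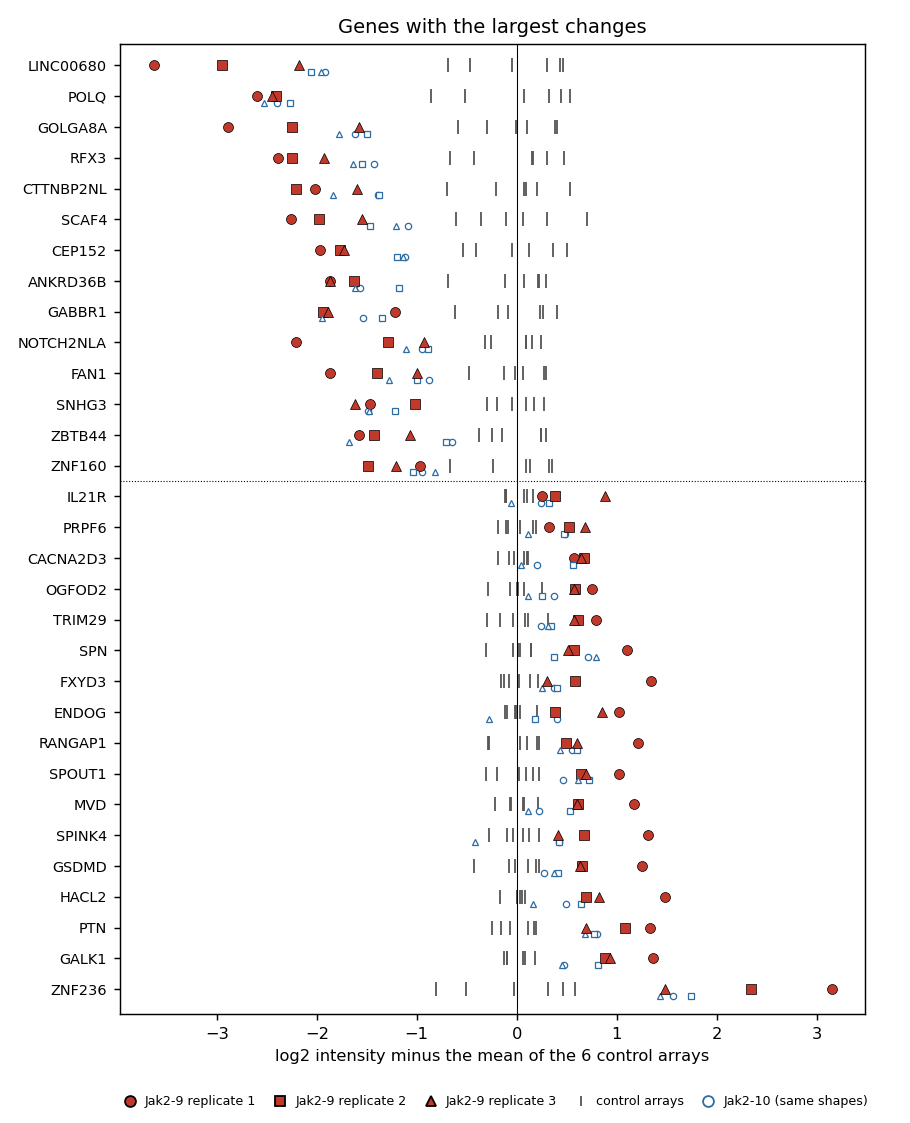
Log2 intensity minus the mean of the 6 control arrays for the genes with the largest falls (above the dotted line) and rises (below it), in red for Jak2-9 by replicate, as grey ticks for the control arrays and as open blue symbols for Jak2-10. In every fall drawn all 3 red symbols lie left of all control ticks, while among the rises replicate 1 is the rightmost red symbol for most genes.

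The largest rise was at ZNF236, a zinc finger gene. It read 11.01, 10.20 and 9.35 against 7.06, 8.001 and 8.44, above every control but far apart from each other. The difference was 2.33 ± 0.32 (adjusted p in limma = 0.00113), 5.01-fold, and 1.91 without replicate 1. But the other 2 probe sets of the gene differed by -0.03 and -0.14. Their control medians were 4.61 and 6.33, the first near the level of the markers of other cell types. GALK1, the galactokinase that starts galactose use, read 7.17, 6.69 and 6.74 against 5.68, 5.79 and 5.99. It rose 2.08-fold (1.06 ± 0.12, adjusted p in limma = 0.000267) and by 0.91 without replicate 1. PTN, the secreted growth factor pleiotrophin, read 6.83, 6.58 and 6.19 against 5.24, 5.52 and 5.69. It rose 2.05-fold (1.04 ± 0.13), while its 3 dimmer probe sets differed by 0.04 to 0.19. These had control medians of 4.46 to 4.70, near the level of the same markers. HACL2, a 2-hydroxyacyl-CoA lyase, read 9.52, 8.73 and 8.86 against 7.87, 8.06 and 8.12. Its rise was 1.00 with replicate 1 and 0.75 without it, with 0.70 and 0.06 at its other 2 probe sets, the last at a control median of 4.53. None of these 4 genes lost its call in any of the 12 leave-outs.

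GSDMD, the pore-forming protein of pyroptosis, read 8.70, 8.10 and 8.08 against 7.02, 7.49 and 7.66. It rose by 0.85 (adjusted p in limma = 0.00507), and by 0.65 without replicate 1 (0.0109). SPOUT1, a methyltransferase-fold protein, rose by 0.79 and by 0.67 without replicate 1, and BSG, the surface protein basigin, by 0.58 (9.83, 9.50 and 9.51 against 8.93, 9.01 and 9.16) and by 0.47. In GALK1, HACL2, GSDMD and BSG replicates 2 and 3 lay close to each other, above the controls, and replicate 1 above them. CACNA2D3, a calcium channel subunit, rose by 0.63 with and 0.66 without replicate 1, OGFOD2 by 0.64 and 0.58, and TRIM29 by 0.66 and 0.59, all without overlap with the controls. IL21R, a cytokine receptor chain, differed by 0.51 with all arrays (adjusted p in limma = 0.0539) and rose by 0.63 without replicate 1 (0.0292). The other probe set of IL21R differed by 0.17, and by 0.03 without replicate 1. SPN, the leukocyte surface protein CD43, rose at its brightest probe set (0.73, and 0.54 without replicate 1), but of its other probe sets 1 differed by 0.81, 1 by -0.02 and 1 by -0.78, with no overlap at the first and the last. With GFP alone as the control GSDMD lost its call, SPN lost it with Luc alone (adjusted p in limma = 0.0527), and SPN and TRIM29 lost it when a gene's probe sets were averaged.

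The rises of RANGAP1, ENDOG, FXYD3 and SPINK4 did not hold without replicate 1. RANGAP1, the activator of the Ran GTPase, differed by 0.77 (adjusted p in limma = 0.0195) and by 0.55 without replicate 1 (0.0688). ENDOG, a mitochondrial nuclease, differed by 0.75 (0.0165) and by 0.62 (0.0693). FXYD3 and SPINK4 differed by 0.74 and 0.80 with adjusted p of 0.0345 and 0.0462 in limma, and by 0.44 and 0.54 with 0.0762 and 0.205 without it. The calls of FXYD3 and SPINK4 were lost in 9 of the 12 leave-outs each. RANGAP1 was lost in 2, without Jak2-9 replicate 1 and without GFP replicate 1.

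The next 6 genes were chosen for their distance between replicate 1 and the other 2 Jak2-9 arrays. HMBOX1, a homeobox gene, read 6.68 on replicate 1 but 8.83 and 9.12 on the others, against 9.12 to 9.53 on the controls. Its difference was -1.15 (adjusted p in limma = 0.0862) with replicate 1 and -0.38 without it. FOXO3, a transcription factor of stress and quiescence, read 7.87, 9.72 and 9.73 against 9.65, 9.72 and 9.90, so that replicates 2 and 3 lay among the controls. The same held for FKBP5, a stress hormone response gene (7.14, 8.87 and 9.04 against 8.50 to 9.07). KMT2A, a histone methyltransferase rearranged in leukaemias, read 6.58, 8.55 and 8.45 against 8.72, 8.80 and 8.88, so that replicates 2 and 3 lay below the controls too, but by far less. On the other side, INTS1, a subunit of the Integrator complex, read 7.72, 6.28 and 6.50 against 6.14 to 6.60, and the centromere protein gene CENPB 8.28, 7.16 and 7.03 against 6.58 to 7.05. None of these 6 genes passed the threshold in either fit.

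Among 39 SR proteins, SR-related proteins and splicing kinases, 10 fell and 0 rose in the Jak2-9 cells (25.6% fell, against 1.47% of all genes), and the same 10 fell without replicate 1. SR proteins bind exons and guide the spliceosome, and the CLK and cyclin L proteins act on them in nuclear speckles. The median difference of the list was -0.22, and -0.09 without replicate 1, against 0.06 and 0.04 over all genes. All 3 Jak2-9 arrays lay below all controls for 14 members, against 454 of all 11940 genes. Below 0 were 31 of the 39 differences, against 4334 over all genes. Over the same list the median Jak2-10 difference was -0.16. This list, like the others below, was chosen with earlier results of these data known, so its shares are descriptions.

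Cyclin L1 (CCNL1), a partner of CDK11 in splicing, read 7.46, 8.02 and 8.22 against 9.01, 9.23 and 9.52. It fell by 1.34 (± 0.14, adjusted p in limma = 0.000125), to 39.6% of control, and by 1.12 without replicate 1. CCNL2, its relative, read 6.90, 7.29 and 7.56 against 7.96, 8.24 and 8.57 and fell by 1.01. Both had replicate 1 lowest and replicate 3 highest among the Jak2-9 arrays, and neither overlapped the controls. RSRP1, an arginine- and serine-rich protein, read 8.55, 8.78 and 8.64 against 9.29, 9.57 and 9.77. It fell by 0.89 (± 0.08, adjusted p in limma = 3.39e-05) at this probe set, and its dimmer probe set read 4.88, 5.21 and 5.60 against 7.30, 7.90 and 8.48, 15.1% of control. The probe sets of RSRP1 thus fell in the same direction by very different amounts.

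PNISR, another arginine- and serine-rich protein, read 7.73, 8.05 and 8.06 against 8.67, 8.85 and 9.11 and fell by 0.90. SRSF10, an SR protein that represses splicing when dephosphorylated, read 10.48, 11.35 and 11.33 against 11.71, 11.88 and 12.02. It fell by 0.82 (adjusted p in limma = 0.0106) and by 0.53 without replicate 1, and its 4 probe sets, which differed by -0.57 to -0.82, were all without overlap. RBM5, a regulator of alternative splicing of cell death genes, read 8.54, 8.91 and 9.12 against 9.47, 9.66 and 9.80 and fell by 0.78. The other 4 that fell, named after their values were seen, were SREK1 (-0.70), SRSF11 (-0.62), CLK1 (-0.55) and LUC7L3 (-0.53). The call of CLK1 was lost without GFP replicate 1 or 2, Luc replicate 2 or 3 or Jak2-9 replicate 3 (adjusted p in limma up to 0.0762). Other members, SRSF1 and SON among them (also named after their values were seen), were well below the controls on replicate 1 only, as the plot of the list shows. With GFP alone as the control SRSF10 lost its call.

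**Figure D4:**
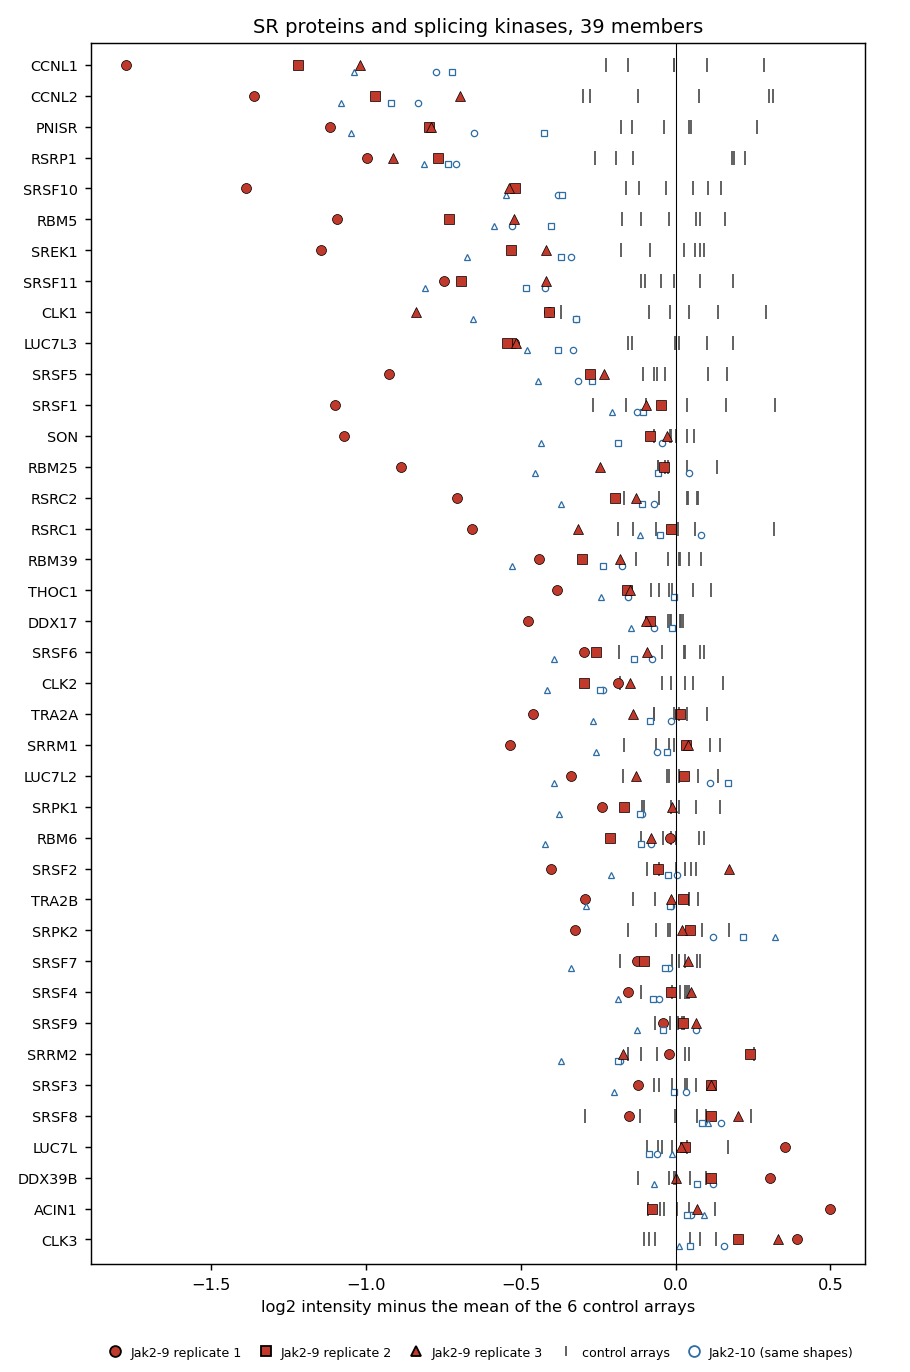
Log2 intensity minus the mean of the 6 control arrays for the 39 SR proteins and splicing kinases, ordered by difference, with Jak2-9 in red by replicate, controls as grey ticks and Jak2-10 in open blue. The upper 10 genes lie left of the control ticks on all 3 Jak2-9 arrays, SRSF1 and SON lie well left of them on replicate 1 only, and at the bottom all 3 CLK3 arrays lie right of the ticks.

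The counts were different for core parts of the spliceosome. Of 37 members of the small nuclear ribonucleoproteins and their partners 2 rose (5.41%, against 1.6% of all genes) and 0 fell, with a median of 0.15, and 1 rose without replicate 1. That 1 was PRPF6, a bridging protein of the tri-snRNP, which rose by 0.51 (7.02, 7.23 and 7.39 against 6.51, 6.68 and 6.89) and by 0.60 without replicate 1; its call was lost without GFP replicate 1 or Luc replicate 2 (adjusted p in limma up to 0.0531) and with GFP alone as the control (0.157). The other was SNRPA, a U1 protein, at 0.38, which lost its call in 10 of the 12 leave-outs. No test of the difference between the 2 splicing lists was made.

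The 7 long noncoding and snoRNA host transcripts were listed with earlier results of these data known, so their share is a description. Of the 7, 3 fell in both fits (42.9%, against 1.47% of all genes) and 0 rose, with a median of -0.85 (-0.31 without replicate 1). They were LINC00680, SNHG3 and NEAT1, the scaffold RNA of nuclear paraspeckles. NEAT1 read 4.63, 4.18 and 4.28 against 4.72, 5.32 and 6.31. It lay below every control, though by little on replicate 1, and fell by 1.05 (± 0.18, adjusted p in limma = 0.00569) and by 1.19 without replicate 1. With GFP alone as the control its call was lost. Its Jak2-9 values lie at or below the level of the markers of other cell types, so the size of its fall is uncertain too.

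Of 33 genes of double-strand break repair 3 fell (9.09%, against 1.47% of all genes) and 0 rose, with a median of -0.09, and 2 fell without replicate 1. POLQ is described above. ATM, the kinase that signals broken DNA, read 6.50, 7.94 and 7.94 against 8.41, 8.63 and 8.82. Replicates 2 and 3 read the same, below the controls, and replicate 1 lay far below both. The fall was 1.15 with it (adjusted p in limma = 0.0236) and 0.67 without it (0.00834). All 3 ATM probe sets were without overlap, with differences of -0.69 to -1.21, and the call was lost without GFP replicate 1, Luc replicate 2 or Luc replicate 3 (adjusted p in limma up to 0.0606), with GFP alone as the control and in the fit of the 9 arrays alone. XRCC2, a gene of homologous recombination, differed by -0.59 (0.0221) and by -0.42 without replicate 1 (0.0818). Of 31 centrosome and cilium genes 2 fell (6.45%), CEP152 and RFX3, and 0 rose, with a median of -0.10. The repair and centrosome lists were also chosen with earlier results of these data known, so their shares are descriptions.

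Among 29 JAK-STAT components other than target genes 1 fell, the hairpin's own target JAK2, and 1 rose, IFNAR2, in both fits. Each is 3.45% of the list, against 1.47% fallen and 1.6% risen over all genes, and the median was 0.04. IFNAR2, a chain of the type I interferon receptor, read 10.31, 10.43 and 10.31 against 9.91, 9.94 and 10.04. It rose by 0.40 (± 0.07, adjusted p in limma = 0.00925) and by 0.42 without replicate 1, but its dimmer probe set differed by -0.22 and overlapped the controls, and its call was lost with the mean of both probe sets. The other JAK kinases passed no threshold, with -0.13 for JAK1, -0.14 for JAK3 and -0.05 for TYK2. At its dimmer probe sets JAK3 went the other way, by 0.33 and 0.11, and overlapped the controls. Among the signal transducers the values were 0.06 for STAT3, 0.07 for STAT5B and 0.20 for STAT5A, the last -0.01 without replicate 1. Of the receptors, EPOR, which binds erythropoietin, differed by 0.29 (0.36 without replicate 1, neither past the threshold). CSF2RB, the shared beta chain of the GM-CSF, IL-3 and IL-5 receptors, read 8.79 on replicate 1 but 10.24 and 10.25 on the others, against 10.06 to 10.32, so that its -0.45 became 0.04 without replicate 1. IL6ST, the signalling chain of the IL-6 receptor, read 7.09, 7.14 and 7.29 against 7.54, 7.79 and 8.19. No Jak2-9 array overlapped the controls at this probe set, and the difference of -0.63 had an adjusted p of 0.051 in limma (-0.59 and 0.162 without replicate 1). The other IL6ST probe sets, at control medians of 4.64 to 6.47, differed by -0.43 to 0.05 and overlapped the controls.

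No fall was called among the 27 genes listed as JAK-STAT targets, and 1 rose, in both fits. Over all genes 1.47% fell and 1.6% rose, so 0 falls in 27 genes does not show the targets to be unchanged. FOS, BCL6, CCND1, ONECUT2, OSM, TNFRSF13B, SOCS1 and GADD45G had control medians of 4.38 to 4.74, near those of markers of other cell types. At that level the arrays were not shown to measure above background, so a fall there could be missed. The median difference of the 27 genes was 0.19 (0.11 without replicate 1), against 0.06 and 0.04 over all genes. Above 0 were 22 of the 27 differences, against 7606 of 11940 over all genes. The 1 that rose was GFI1B, a transcriptional repressor of the erythroid and megakaryocytic lineages. It read 9.82, 9.92 and 9.78 against 9.32, 9.43 and 9.60, and rose by 0.41 (± 0.08, adjusted p in limma = 0.0208; 0.0355 without replicate 1). The groups did not overlap, but the call was lost without GFP replicate 1 or Luc replicate 1 (adjusted p in limma up to 0.0568), with GFP alone as the control, and in the fit of the 9 arrays alone. The Jak2-10 difference was 0.16.

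CISH, the feedback inhibitor that STAT5 induces, read 8.89, 8.54 and 8.43 against 8.13, 8.35 and 8.53. Only replicates 1 and 2 lay above every control, and the difference was 0.26 (adjusted p in limma = 0.17), or 0.13 without replicate 1 (0.657). Its promoter is printed because it holds several copies of the STAT motif TTCNNNGAA, which reads the same on both strands. The 250 bases before the RefSeq start hold 4 matches, in capitals, that begin 241, 230, 129 and 112 bases before it.
CISH promoter, GRCh38.p14 chr3:50611775-50612024, minus strand: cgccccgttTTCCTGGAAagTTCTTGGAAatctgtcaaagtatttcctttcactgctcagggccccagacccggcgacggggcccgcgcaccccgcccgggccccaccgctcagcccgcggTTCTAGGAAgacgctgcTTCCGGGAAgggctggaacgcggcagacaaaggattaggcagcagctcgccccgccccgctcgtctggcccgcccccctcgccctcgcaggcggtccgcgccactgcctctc
Of the tested genes with a RefSeq promoter, 770 of 9593 (8.03%) hold this motif in a window of the same length, as do 13 of 154 risen genes (8.44%), 12 of 146 fallen genes (8.22%) and 3 of 17 JAK-STAT target genes (17.6%). A match is a run of letters and no evidence of binding.

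The other target genes gave small differences. SOCS2 read 7.85, 7.95 and 7.84 against 7.77, 7.89 and 7.99, a difference of 0.00. PIM1, a kinase of survival, differed by 0.06 (adjusted p in limma = 0.726) and PIM2 by 0.29 (0.0863). SOCS3 differed by 0.28 (0.076) and lay above the controls on all 3 arrays, with 5.59, 5.45 and 5.43 against 5.10, 5.15 and 5.38. Its dimmer probe sets differed by 0.02 and 0.03 and overlapped the controls. BCL2L1, the survival protein BCL-XL, differed by 0.22 and SOCS1 by 0.37, the latter 0.11 without replicate 1. MYC read 12.48, 12.82 and 12.84 against 12.66, 12.75 and 12.81. Cyclin D2 (CCND2) read 10.69, 11.95 and 11.84 against 11.72, 11.83 and 11.91, and MCL1, a survival protein, 9.80, 10.50 and 10.46 against 10.44, 10.51 and 10.60. These last 3 were below the controls on replicate 1 only, and without it their differences were 0.08, 0.08 and -0.04.

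**Figure D5:**
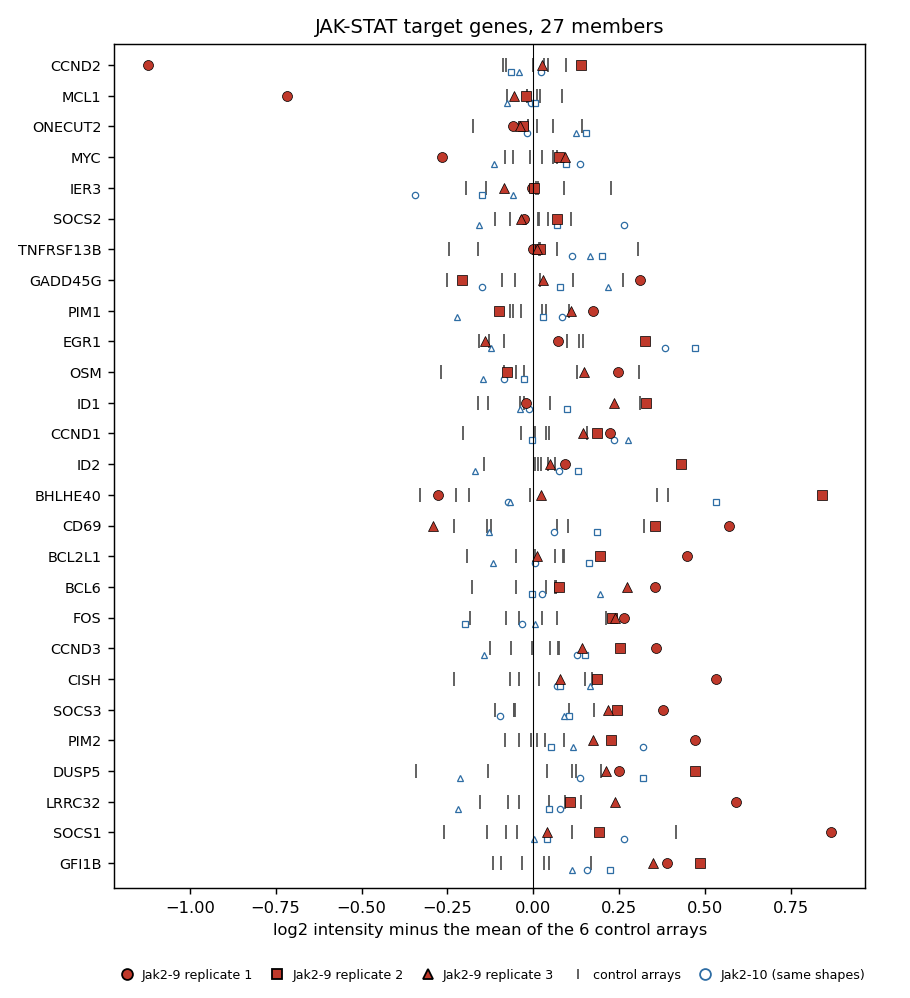
Log2 intensity minus the mean of the 6 control arrays for the 27 JAK-STAT target genes, ordered by difference, with Jak2-9 in red by replicate, controls as grey ticks and Jak2-10 in open blue. Most Jak2-9 symbols lie at or right of the control ticks, CCND2 and MCL1 lie left of them on replicate 1 alone, and GFI1B lies right of them on all 3 arrays.

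The erythroid and megakaryocytic lists describe the lineage features of HEL. Of 10 globins and related genes, 2 rose with all arrays (20.0%, against 1.6% of all genes) and 0 without replicate 1, 0 fell, and the median was 0.31 (0.23). They were HBB, the adult beta globin, at 0.42 (adjusted p in limma = 0.0382; 0.15 without replicate 1) and HBZ, the embryonic zeta globin, at 0.62 (0.0455; 0.12). Their calls were lost in 7 and 10 of the 12 leave-outs. The gamma globins that HEL makes most of read 14.81, 14.82 and 14.84 against 14.63, 14.77 and 14.79 for HBG2 and differed by 0.05 for HBG1, near-identical genes whose probe sets may share signal. The summed globin intensity was 84274 to 89497 on the Jak2-9 arrays and 74693 to 81877 on the controls.

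Of 14 genes of haem synthesis and turnover 1 fell (7.14%, against 1.47% of all genes) and 1 rose (7.14%, against 1.6%). SLC25A37 fell in both fits. This mitoferrin carries iron into mitochondria for haem. It read 9.04, 9.31 and 9.35 against 9.66, 9.83 and 10.07, below every control, and fell by 0.64 (± 0.10, adjusted p in limma = 0.00256), to 64.2% of control, and by 0.54 without replicate 1. HMOX2, a haem oxygenase, rose by 0.57 (0.0406) but not without replicate 1 (0.15) and in only 2 of the 12 leave-outs. Of 23 red cell membrane genes 1 rose (4.35%), BSG, described above. Of 34 megakaryocyte and platelet genes CD9 and SELP rose (5.88%, against 1.6% of all genes), by 0.42 and 0.43, and neither passed without replicate 1 (adjusted p in limma = 0.0688 and 0.0791). Of 24 haematopoietic transcription factors GFI1B alone changed (4.17% rose, against 1.6% of all genes), and the median was -0.01.

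In metabolism, 2 of 19 cholesterol synthesis genes rose (10.5%, against 1.6% of all genes), 0 fell and the median was 0.26, with 1 risen and a median of 0.17 without replicate 1. MVD, the decarboxylase that makes isopentenyl pyrophosphate, read 6.88, 6.32 and 6.31 against 5.49, 5.71 and 5.92. It rose by 0.80 (± 0.14, adjusted p in limma = 0.00644), 1.74-fold, and by 0.61 without replicate 1 (0.0164). DHCR7, the last enzyme of the pathway, read 9.41, 9.21 and 9.06 against 8.51, 8.70 and 8.93. It rose by 0.51 (0.0168), with 0.58 at its other probe set, but its call was lost without replicate 1 (0.42, 0.0649). Other members were not called in either fit. NSDHL differed by 0.50, EBP by 0.41 and MVK by 0.31, and by 0.25, 0.17 and 0.32 without replicate 1. Nearer 0 were SQLE, the squalene epoxidase, at 0.03, HMGCS1, which makes HMG-CoA, at -0.15, and INSIG1, a sterol sensor, at 0.07. Without replicate 1 SQLE differed by 0.11, HMGCS1 by -0.03 and INSIG1 by 0.25. Of the 19 differences 15 were above 0, against 7606 of 11940 over all genes. With Luc alone as the control DHCR7 lost its call.

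The promoters of the 2 cholesterol genes that rose are printed because sterol-responsive promoters often carry CCAAT boxes beside the site of the factor SREBP. CCAAT was searched on both strands, so that ATTGG also counts, and matches are in capitals. The 250 bases before the RefSeq start of MVD hold 3, beginning 159, 120 and 85 bases before it, and those before 1 of the 2 RefSeq starts of DHCR7 hold 2, beginning 94 and 48 bases before it. The window of the other DHCR7 start holds 0. HMGCS1, which did not rise, also has a window with 2 matches and another with 0.
MVD promoter, GRCh38.p14 chr16:88663092-88663341, minus strand: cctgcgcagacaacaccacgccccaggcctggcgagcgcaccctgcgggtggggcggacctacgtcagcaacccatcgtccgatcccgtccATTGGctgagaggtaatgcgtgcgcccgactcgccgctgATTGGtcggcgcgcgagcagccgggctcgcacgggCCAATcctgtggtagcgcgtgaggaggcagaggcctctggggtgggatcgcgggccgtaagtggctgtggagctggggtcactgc
DHCR7 promoter, GRCh38.p14 chr11:71448394-71448643, minus strand: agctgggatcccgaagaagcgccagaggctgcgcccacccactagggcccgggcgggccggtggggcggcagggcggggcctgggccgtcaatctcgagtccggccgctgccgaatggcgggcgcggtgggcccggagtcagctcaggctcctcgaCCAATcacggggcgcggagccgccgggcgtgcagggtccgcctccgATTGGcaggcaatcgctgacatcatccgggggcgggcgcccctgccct
Of the tested genes with a promoter 4088 of 9593 (42.6%) hold CCAAT in such a window, against 15 of 17 cholesterol genes (88.2%), 73 of 154 risen genes (47.4%) and 55 of 146 fallen genes (37.7%). Among 32 amino acid and endoplasmic reticulum stress genes 24 (75.0%) hold it. The core of the SREBP site, TCACCCCAC, was in 1 of 17 cholesterol genes (5.88%), 1 of 154 risen and 1 of 146 fallen genes. Of the tested genes 53 of 9593 (0.552%) hold this core.

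Of 31 glycolysis and hypoxia genes 3 rose with all arrays (9.68%, against 1.6% of all genes) and 0 without replicate 1. Above 0 were 28 of 31 differences, against 7606 of 11940 over all genes, and the median was 0.16. The genes that rose were the aldolases ALDOC (0.67, adjusted p in limma = 0.0208) and ALDOA (0.36, 0.0467) and GPI (0.42, 0.0345), the glucose phosphate isomerase. ALDOC read 9.80, 9.77 and 9.45 against 8.85, 8.98 and 9.34, above every control, and was lost without Luc replicate 1, Luc replicate 2 or Jak2-9 replicate 1 (0.0746). ALDOA and GPI were lost in 9 and 8 of the 12 leave-outs. Of 18 aminoacyl-tRNA synthetases 2 rose (11.1%). WARS1, which charges tryptophan, rose by 0.44 (9.94, 9.58 and 9.65 against 9.17, 9.28 and 9.40) and by 0.34 without replicate 1 (adjusted p in limma = 0.0439), but was not called with GFP alone as the control (0.12). FARSA rose by 0.52 with all arrays only.

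Of 37 amino acid and endoplasmic reticulum stress genes 1 rose (2.70%, against 1.6% of all genes), PPP1R15A, the phosphatase subunit that ends the stress response. Its difference was 0.52 (adjusted p in limma = 0.0326), or 0.43 without replicate 1 (0.128), and its call was lost in 8 of the 12 leave-outs. ATF4 differed by 0.03 and DDIT3 by 0.07. The median of the list was 0.16 (0.05 without replicate 1), and 29 of its 37 differences were above 0, against 7606 of 11940 over all genes. Of 53 respiratory chain genes 1 rose (1.89%) and 0 fell, and of 18 fatty acid synthesis genes 1 rose (5.56%) and 0 fell, each with all arrays only. In the cell division lists MCM2, a helicase subunit, was the 1 of 38 G1/S and replication genes that rose (2.63%), and AURKB and PLK1, mitotic kinases, were 2 of 36 G2/M genes (5.56%), against 1.6% of all genes. Their differences were 0.39, 0.47 and 0.45, and none passed without replicate 1 or in more than 5 of the 12 leave-outs.

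Single members moved in several other lists. NFKBIE, an inhibitor of NF-kB, rose by 0.56 (8.12, 7.87 and 7.78 against 7.25, 7.34 and 7.55, adjusted p in limma = 0.00806) and by 0.46 without replicate 1, but was not called with GFP alone as the control. CXCL2, a chemokine on the same list of 26, fell by 0.56 with all arrays only. Of 22 FOXO targets KLHL24 fell by 0.81 in both fits, at the brightest of 3 probe sets. The others differed by -0.05 and 0.08 but were dim, with control medians of 5.25 and 4.37. The call of KLHL24 was lost when the probe sets were averaged and with GFP alone as the control (adjusted p in limma = 0.063). On the same list TSC22D3 rose by 0.54 with all arrays only. ATG12 among 31 lysosome and autophagy genes fell, and CD74 among 20 antigen presentation genes, BCL2L13 among 20 BCL2 family genes and KRT18 among 21 fibroblast and epithelial genes rose, in each case with all arrays only.

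No member passed the threshold in limma in 13 of the 39 lists, those of monocytes and granulocytes, lymphoid cells, ribosome biogenesis with MYC targets, ribosomal proteins, the proteasome, interferon-stimulated genes, p53 targets, ERK output, histones, heat shock, NRF2, chromatin regulators and housekeeping genes. These lists held 15 to 55 genes, and over all genes 1.6% rose and 1.47% fell. A list of that size with 0 calls lies near those shares, which does not show its genes to be unchanged. Nearest to the threshold were IFITM1, an interferon-induced membrane protein, at 0.33 (adjusted p in limma = 0.0506) and ETV5, an ERK-induced factor, at 0.49 (0.0539). CTSG, a neutrophil protease, read 7.40, 6.55 and 6.36 against 6.05, 6.11 and 6.34, with an adjusted p of 0.0568 in limma. Over the 55 ribosomal protein genes the median difference was 0.06, equal to that of all genes.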

How the data were processed

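RNA of 12 HEL samples was amplified from 20 ng of total RNA and hybridised to 1-colour arrays. The deposited table holds intensity on a linear scale for 22930 probe sets, and the submitters' processing notes name RMA. The sources used here do not name the software or its version. RMA sets the arrays to a common distribution, which can hide a shift shared by most genes. Of the probe sets, 524 controls were left out, 19415 carried a single symbol in GEO's annotation of the platform, 125 more than 1 and 2866 none. Log2 values of the brightest probe set per gene (11940 genes) were fitted with limma 3.58.1 in R 4.3.3, as 4 group means over all 12 arrays, with the contrast of Jak2-9 against the mean of GFP and Luc. P-values were adjusted by Benjamini-Hochberg over all genes, threshold 0.05. For the JAK2 difference between the hairpins the adjustment was over the 19415 probe sets with a single symbol. A second fit left out Jak2-9 replicate 1. Exact permutation tests used scipy 1.17.1 in Python 3.11.15. The script was tested on simulated data. Arrays with the same replicate number did not deviate together (r from -0.12 to 0.18), so no block entered.

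Named genes are JAK2, the 12 largest rises and falls in each fit with no overlap, the 8 highest and 8 lowest on replicate 1, and up to 6 changed members, the 2 nearest to the threshold or (6 lists) any member of each of 39 lists. Members and lists were chosen with earlier results of these data known. Alternatives changed the scaling, filter, probe set rule, variance prior, array weights, controls and arrays fitted, and left out each array. A fit of the 8 arrays compared without Jak2-9 replicate 1 was chosen after seeing the data. Promoters come from RefSeq, GRCh38.p14.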

Additional observations from a re-analysis of the deposited data

Results flagged for a closer look

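A control probe set outside the gene comparison gave a signal above that of the control samples. The 5′ probe set for 18S ribosomal RNA read 12.19, 12.28 and 11.95 on Jak2-9 replicates 1, 2 and 3, against 10.15, 10.84 and 11.53 as the lowest, median and highest of the 6 controls. The mean difference was 1.29 on the log2 scale, and 1.26 without replicate 1, with no overlap between the groups (two-sided exact permutation p = 0.0238, the lowest value possible with 3 against 6 arrays). The Jak2-10 arrays read 12.43 to 12.58. The middle probe set of the same RNA differed by 0.77 and the 3′ probe set by 0.42, the latter -0.15 without replicate 1. The cause was not tested.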

How the results depend on the processing

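JAK2 kept its direction and its call under every alternative run, from -0.90 to -0.55 with adjusted p in limma of 0.00259 to 0.0241 over the 12 leave-outs, and none of the 70 named genes called with all arrays changed sign under any alternative. Of the 167 named genes that were not called, 48 changed sign under at least 1, CCND2, MYC and CSF2RB among them without Jak2-9 replicate 1. The count of 367 called genes ranged from 156 to 1309 over the leave-outs, that of 191 risen from 36 to 854 and that of 176 fallen from 109 to 455. In the fit of the 9 arrays compared, 157 were called, 39 up and 118 down. After median centring 680 were called and 461 rose, and with an intensity trend in the variance 298 rose. With GFP alone as the control 99 were called, 22 up and 77 down, and with Luc alone 196, of which 58 rose. The 8 arrays without Jak2-9 replicate 1, chosen after seeing the data, gave 169 called and 44 risen. With the replicate block 545 were called and 334 rose, JAK2 at an adjusted p of 0.0103. No array correlated best with its own number, as a hint from the data. Jak2-10 minus Jak2-9 gave 0 called genes in limma under each alternative run for it. Fewer arrays or controls leave less to estimate the spread, but the cause of the other shifts was not tested. Of the same 70 genes, 39 were called in each of the 12 leave-outs, 7 were lost in 1 to 3 and 24 in 4 or more, and 28 were lost without Jak2-9 replicate 1.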

Other observations

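The control arrays differed among themselves at the genes that fell with Jak2-9. For 137 of the 176 fallen genes (77.8%) the lowest of the 6 controls was GFP replicate 2 or 3, against 34.9% of all genes, and for the 40 that fell at least 2-fold it was so for 38 (95%). Over those 40 genes the median deviation from the control mean was -0.33 on GFP replicate 3, -0.21 on GFP replicate 2 and 0.16 to 0.18 on the Luc arrays. The median SD over the 6 controls was 0.29 for those 40 genes and 0.11 for all genes. The same 2 arrays gave the lowest Alu values among the controls, 14.50 and 14.52 against 14.63 to 14.68 on the other 4. The fallen genes were chosen by their distance from these controls, so the pattern is a description.

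Gene length and probe sets gave 2 more descriptions. The median span of a gene in RefSeq was 28.7 kb over all genes, 12.5 kb over the risen and 43.6 kb over the fallen, with 14.8 and 47.2 kb in the fit without replicate 1. For the 82 fallen genes with more than 1 probe set, the median difference was -0.78 at the brightest and -0.32 at the others, of which 67 genes were below 0 and 15 above. For the 70 risen genes these were 0.50 and 0.24, with 62 above 0 and 8 below. Of 228 genes whose symbol is ZNF and a number, a list chosen after the values were seen, 19 fell and 3 rose. These are 8.33% and 1.32%, against 1.47% and 1.6% of all genes, and the median was -0.06. Without replicate 1, 9 of the 228 fell and 1 rose, against 120 and 36 of all 11940 genes.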
